A study of Mus musculus with 20 samples.

Results

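Of the 23432 gene symbols counted in mouse skin, 37 formed a module whose level in heterozygous (Het) epidermis at embryonic day 13 (E13) stood apart both from p63 knockout (KO) epidermis at E13 and from Het epidermis at embryonic day 9 (E9). They were chosen by their levels in CPM, the counts of a gene scaled to the same total of gene counts in every library, not to transcript length. A gene was kept where its lowest E13 Het value was at least 10 CPM and at least 3 times the highest value of any KO or any E9 Het library. These thresholds were met by 53 genes, of which 16 were left out by name because they are keratins, collagens, integrins, desmosomal cadherins, Wnt ligands or other families and single genes that the rule drops. The differences of E13 Het epidermis from KO and from E9 Het epidermis therefore chose the 37 genes and are given below as a description, without a test.

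The study set RNA sequencing, open chromatin and p63 binding side by side in early mouse epidermis, and its RNA libraries are used here. The first of the 4 RNA groups was E13 epidermis of embryos labelled {delta}Np63 -GFP KI-KO (called KO). The others came from {delta}Np63 -GFP KI-Het embryos (called Het): epidermis at E13, epidermis at E9 and dermis at E13, with 3 libraries in each of the 4 groups. All groups thus carried the knocked-in GFP reporter, the Het controls included, and no group without it is among the RNA libraries used here. Back skin was taken apart with collagenase and trypsin, and epidermal cells were sorted as GFP-positive cells and dermal cells with an antibody to CD140a. The epidermal RNA had its ribosomal RNA removed, whereas oligo(dT) picked the dermal RNA, and this step cannot be told apart from tissue. Nothing states that the replicates came from separate embryos, so p-values reflect the spread among these libraries alone, which may be technical.

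The transcription factor p63 belongs to the p53 family, and its short form, ΔNp63, is the main form in the basal layer of stratified epithelia. Mice without p63 lack a stratified epidermis, and the surface ectoderm remains a simple epithelium. Between E9 and E13 the murine surface ectoderm commits to epidermis, begins to stratify under the covering periderm and switches on keratins, junction proteins and matrix receptors of basal keratinocytes.

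Library totals ran from 3373819 to 7777808 counts in epidermis and from 16931664 to 33386872 in dermis, and 10765 to 16200 genes had a count in an epidermal library. Trp63, the gene of p63 and of the targeted locus, had 24.9, 27.4 and 23.4 CPM in KO libraries, against 582, 636 and 477 CPM in E13 Het libraries and 303, 228 and 128 CPM in E9 Het libraries. Every KO library was thus below every Het epidermal library. A list of 7 basal keratinocyte markers, which includes Trp63, Krt5 and Krt14, summed to 321 to 425 CPM in KO libraries, 3418 to 4576 CPM in E13 Het libraries and 382 to 578 CPM in E9 Het libraries. All 7 were detected in each of these groups, and the dermal libraries summed to 53.7 to 68.8 CPM. Markers of simple epithelium and periderm (5 genes) summed to 1554 to 2270 CPM in KO libraries and 137 to 1570 CPM in E13 Het libraries. They summed to 877 to 1264 CPM in E9 Het libraries, where Krt4 was at 0. A list of 8 mesenchymal markers summed to 1051 to 2157 CPM in KO libraries, 273 to 1329 CPM in E13 Het libraries and 173 to 242 CPM in E9 Het libraries, and Dcn, Lum and Twist2 were at 0 at E9. Markers of melanocytes, endothelium, erythroid cells, macrophages, muscle and Merkel cells each summed to no more than 40.0 CPM in any KO library and 28.5 CPM in any E13 Het library. In E9 Het libraries these sums reached 81.6 CPM for muscle, 68.7 CPM for Merkel cells and 65.1 CPM for melanocytes, and no more than 27.7 CPM for the others. The part of other cells in the values of the module was not tested. Fewer cells of a type and less RNA per cell cannot be told apart in such bulk samples.

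All 37 genes matched a RefSeq record of GRCm38.p6, on 17 chromosomes with no more than 5 on any of them, and 36 of them code for protein. Promoter windows of 250 bases before to 50 bases after the gene start were taken from RefSeq for 30 of the 37 genes. These windows were searched on both strands for the repeat unit of the p53 family response element, to which p63 binds in pairs of units. A unit lay in a window of 3 of the 30 genes (10%), against 9.55% of the 27025 genes with windows in the table. A gene could have several windows. Counted by window, the unit lay in 7.32% of the 41 windows of members, against 8.36% of all 32851 windows. The 3 windows are shown in full because they are the members' windows that hold the unit, which is in capitals, and each is written 5′ to 3′ on the minus strand, on which the 3 genes lie.
Fam83b, chr9:76567066-76567365: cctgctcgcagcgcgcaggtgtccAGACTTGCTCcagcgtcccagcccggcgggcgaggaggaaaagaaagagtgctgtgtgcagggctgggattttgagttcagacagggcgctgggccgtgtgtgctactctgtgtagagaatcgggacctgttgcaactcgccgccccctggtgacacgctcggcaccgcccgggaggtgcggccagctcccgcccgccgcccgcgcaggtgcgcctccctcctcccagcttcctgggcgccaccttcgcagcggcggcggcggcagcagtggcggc
Pm20d2, chr4:33189688-33189987: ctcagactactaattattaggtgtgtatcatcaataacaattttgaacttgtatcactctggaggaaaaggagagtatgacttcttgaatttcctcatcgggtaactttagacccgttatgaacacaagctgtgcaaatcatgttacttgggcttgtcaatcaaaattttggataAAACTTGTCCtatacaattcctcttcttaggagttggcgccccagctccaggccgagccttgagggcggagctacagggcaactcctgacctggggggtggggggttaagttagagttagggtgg
Sv2b, chr7:75309213-75309512: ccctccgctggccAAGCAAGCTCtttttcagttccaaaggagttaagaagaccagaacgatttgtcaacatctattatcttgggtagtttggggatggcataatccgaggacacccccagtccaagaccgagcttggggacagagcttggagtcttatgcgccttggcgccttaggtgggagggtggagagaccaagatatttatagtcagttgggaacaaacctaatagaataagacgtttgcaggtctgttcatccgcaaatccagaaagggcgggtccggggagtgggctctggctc
The unit began 226 bases before the start in Fam83b, 75 bases before it in Pm20d2 and 237 bases before it in Sv2b. The AP-1 site TGANTCA was found in windows of 2 members (6.67%, against 8.97% of all genes), Btbd11 and Scel, and the AP-2 site GCCNNNGGC in windows of 7 members (23.3%, against 18.5%). A TATAAA box occurred in windows of Grasp and Sv2b (6.67%, against 15.7%). Counted by window, the shares were 4.88% against 7.81% for AP-1, 17.1% against 16.6% for AP-2 and 7.32% against 13.6% for TATAAA. No matches of different motifs overlapped. Such matches describe letters in short windows, and elements elsewhere were not searched.

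A few members lay close to other genes of interest. The non-coding 5930412G12Rik, which RefSeq lists as Fzd10os, ends 419 bases from Fzd10, a Wnt receptor gene that met the same thresholds and was left out by family. Cldn1 lies 464.557 kb from Trp63 itself on chromosome 16, and Grasp lies 474.313 kb from the basal keratin gene Krt5 on chromosome 15. Irx4 and Tppp, 739.797 kb apart on chromosome 13, were the members nearest to each other. In 10 members (Anxa8, Chst15, Frmpd1, Grasp, Nr2e3, Ntn4, Papln, Pcsk2, Sema6d and Sv2b) the gene overlaps another counted gene. Whether reads were counted by strand is not known, and reads of such pairs may be shared.

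**Figure D1:**
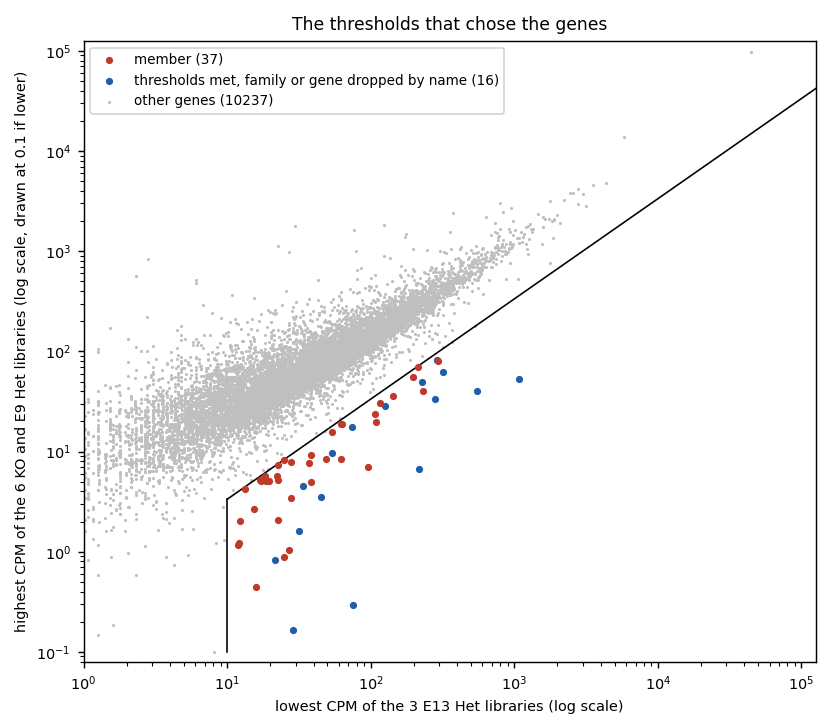
Each point is 1 gene, placed by its lowest CPM in the 3 E13 Het libraries (x axis, log scale) and its highest CPM in the 6 KO and E9 Het libraries (y axis, log scale, drawn at 0.1 if lower); genes with an E13 Het minimum of 1 CPM or more are drawn, and the black lines mark 10 CPM and the 3-fold difference. The 37 members (red) and 16 genes dropped by name (blue) fill the corner below the lines, and the members lie between 3.02 and 36.1 times above their highest KO or E9 Het library.

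By the way they were chosen, all 37 genes were lower in every KO library than in every E13 Het library, and lower in every E9 Het library too. What the thresholds left free was how far below they lay. The mean KO level was 8.56% of the mean E13 Het level at the median over the 37 genes, with a range of 0.422% to 18.9%, and stood under 5% in 13 genes. The mean E9 level was 6.86% of E13 Het at the median, with a range of 0% to 26.0%, and stood under 5% in 17 genes. No gene was without counts in all KO libraries, whereas 5 (Anxa8, Baalc, Pcsk2 and Sv2b among them) had none in the E9 libraries. The lowest E13 Het library exceeded the highest KO or E9 library by 4.15 times at the median, and that highest library was a KO library for 25 genes and an E9 library for 12. Just inside the 3-fold threshold were Doc2b at 3.02, Jag1 at 3.05, 5930412G12Rik at 3.09, Pm20d2 at 3.11 and Nipal4 at 3.21 times, and just outside were Egfr at 2.96, Spo11 at 2.85, Sh3rf2 and Exoc3l4 at 2.74 and Tor3a at 2.67 times. Members just inside the 10 CPM threshold included Nr2e3 at 12.1, Rhov at 12.3, Pm20d2 at 13.2 and St8sia6 at 15.4 CPM, and just outside were Slc22a4 at 9.48, Crtac1 at 9.36, Fam184b at 8.41, Dkk4 at 8.05 and Rhbg at 5.82 CPM. Over the 3 E13 Het libraries the coefficient of variation was 22.1% at the median of the members, against 20.4% over the 7975 genes with an E13 Het minimum of 10 CPM. It ran from 4.07% in Fam83b to 84.0% in Rhov.

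In edgeR's quasi-likelihood test over 13052 genes, which uses the same contrasts as the choice of the genes, 17 of the 37 were called lower in KO epidermis than at E13 in Het epidermis (1.36% of all genes) and 26 higher in E13 Het than in E9 Het epidermis (4.77% of all genes). Nothing is read from these counts.

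**Figure D2:**
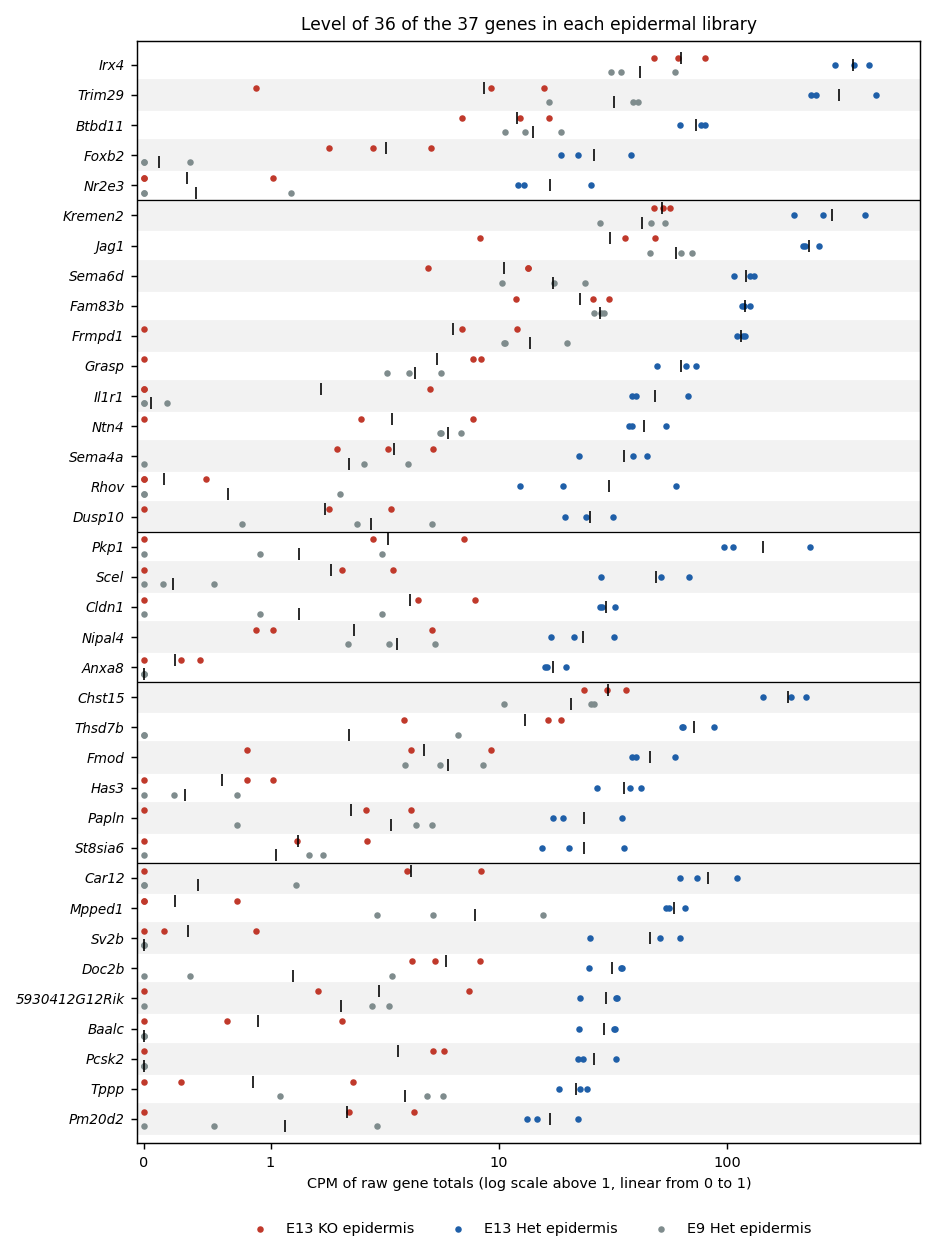
Level of 36 of the 37 genes in CPM (x axis, log scale above 1 and linear from 0 to 1) in the 3 E13 KO (red), 3 E13 Het (blue) and 3 E9 Het (grey) libraries; a vertical bar marks the mean of a group, and horizontal lines part the functional groups in the order of the text. Every blue point lies to the right of the red and grey points of its gene, and all but 10 genes have a KO or E9 library at 0.

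Among the regulators, Irx4, Foxb2 and Nr2e3 encode DNA-binding transcription factors, Trim29 a tripartite motif protein of squamous epithelia and Btbd11 a protein with BTB and ankyrin repeat domains. Irx4, an Iroquois homeobox gene known for its part in ventricular identity of the heart, had 80.1, 61.1 and 47.7 CPM in KO, against 416, 357 and 296 CPM in E13 Het and 34.3, 58.7 and 31.1 CPM in E9 Het libraries. All 9 libraries held it, and the KO mean was 17.7% of the E13 Het mean. Trim29 had 15.7, 9.27 and 0.889 CPM in KO, against 449, 245 and 232 CPM in E13 Het and 40.4, 38.6 and 16.5 CPM in E9 Het libraries, so that each KO library was below each E9 library as well. Foxb2, a forkhead gene, had 1.80, 2.80 and 5.04 CPM in KO, against 37.7, 22.2 and 18.6 CPM in E13 Het and 0, 0.368 and 0 CPM in E9 Het libraries. It was present in each KO library, while in E9 epidermis only replicate 2 held it, with 2 counts. Nr2e3, an orphan nuclear receptor known from photoreceptors, had 0, 1.03 and 0 CPM in KO, against 25.3, 12.1 and 12.9 CPM in E13 Het and 1.23, 0 and 0 CPM in E9 Het libraries, with a single KO library and a single E9 library above 0. Btbd11 averaged 11.9 ± 4.88 CPM in KO, 72.6 ± 9.55 CPM in E13 Het and 14.1 ± 4.13 CPM in E9 Het (mean ± SD, n = 3 each), a KO level of 16.4% and an E9 level of 19.5% of E13 Het.

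Signalling genes made up 12 members. Jag1, a ligand of Notch receptors, and Kremen2, a receptor for Dickkopf proteins that lowers the Wnt co-receptor LRP6 at the cell surface, were already well detected in E9 epidermis. Jag1 had 48.2, 35.6 and 8.30 CPM in KO, against 219, 214 and 253 CPM in E13 Het and 63, 45.6 and 70.2 CPM in E9 Het libraries. KO replicate 3 was far below the other KO libraries, and the E9 mean of Jag1 was 26.0% of its E13 Het mean, the highest E9 share in the module. Kremen2 had 52.2, 56.1 and 47.7 CPM in KO, against 399.7, 263 and 196 CPM in E13 Het and 53.2, 46.4 and 27.7 CPM in E9 Het libraries, and its KO and E9 libraries overlapped.

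Il1r1, the signalling receptor of interleukin 1, was close to 0 at E9. It had 0, 5.0 and 0 CPM in KO, against 38.2, 67.4 and 39.7 CPM in E13 Het and 0, 0.184 and 0 CPM in E9 Het libraries, so that a single KO library and, with 1 count, a single E9 library held it. That KO replicate 2 had the highest summed mesenchymal markers of the KO libraries (2157 CPM, against 1051 and 1264), as E13 Het replicate 2 had of its group (1329 CPM, against 288 and 273). Their part in the Il1r1 values was not tested.

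The transmembrane semaphorins Sema6d and Sema4a and the netrin Ntn4, all families known from axon guidance, were low in both other epidermal groups. Sema6d had 4.91, 13.4 and 13.3 CPM in KO, against 131, 126 and 107 CPM in E13 Het and 17.4, 10.3 and 23.8 CPM in E9 Het libraries. Its KO and E9 libraries overlapped. Sema4a averaged 3.46 ± 1.60 CPM in KO, 35.1 ± 11.3 CPM in E13 Het and 2.20 ± 2.03 CPM in E9 Het. For Ntn4, a secreted protein related to laminins, the means were 3.40 ± 3.92 CPM in KO, 43.1 ± 9.46 CPM in E13 Het and 5.96 ± 0.728 CPM in E9 Het. The intracellular members were Dusp10, a phosphatase of the JNK and p38 kinases, the small GTPase Rhov, Fam83b, which acts in EGF receptor and RAF signalling, and the scaffold proteins Grasp and Frmpd1. Fam83b, which varied least among E13 Het libraries, had 30.3, 25.7 and 11.9 CPM in KO, against 125, 118 and 116 CPM in E13 Het and 27.9, 28.9 and 26.0 CPM in E9 Het libraries, with KO and E9 libraries overlapping. Rhov varied most, with 0.491, 0 and 0 CPM in KO, against 59.5, 12.3 and 19.1 CPM in E13 Het and 2.01, 0 and 0 CPM in E9 Het libraries, and its 3 KO counts all came from replicate 1. Dusp10 averaged 1.73 ± 1.69 CPM in KO, 25.0 ± 6.05 CPM in E13 Het and 2.75 ± 2.19 CPM in E9 Het. The mean of Grasp was 5.36 ± 4.65 CPM in KO, 62.6 ± 12.2 CPM in E13 Het and 4.29 ± 1.19 CPM in E9 Het. Frmpd1 averaged 6.28 ± 5.99 CPM in KO, 115 ± 4.92 CPM in E13 Het and 13.7 ± 5.39 CPM in E9 Het. The KO and E9 libraries overlapped in these 3 genes.

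The 5 junction and barrier genes had a median KO level of 3.74% and a median E9 level of 0.929% of E13 Het. Pkp1 encodes plakophilin 1 of the desmosomal plaque and had 7.03, 2.80 and 0 CPM in KO, against 229, 96.6 and 106 CPM in E13 Het and 3.09, 0.920 and 0 CPM in E9 Het libraries. Cldn1 encodes a claudin of tight junctions that the epidermis needs to hold water, and had 7.85, 4.41 and 0 CPM in KO, against 27.8, 28.2 and 32.2 CPM in E13 Het and 3.09, 0.920 and 0 CPM in E9 Het libraries. The KO and E9 libraries overlapped in both genes, and KO replicate 3 and E9 replicate 4 had no count of either.

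Scel encodes sciellin, a precursor of the cornified envelope, and had 3.43, 2.06 and 0 CPM in KO, against 51.1, 28.0 and 67.6 CPM in E13 Het and 0.154, 0.552 and 0 CPM in E9 Het libraries. Nipal4, mutated in human congenital ichthyosis, had 5.07, 1.03 and 0.889 CPM in KO, against 21.3, 16.8 and 32.0 CPM in E13 Het and 5.25, 3.31 and 2.18 CPM in E9 Het libraries. Both were highest in E13 Het replicate 3, the library of its group with the highest sum of simple epithelium and periderm markers (1570 CPM, against 423 and 137). In KO libraries, where both were low, that sum was 1554 to 2270 CPM. The part of such cells in the Scel and Nipal4 values was not tested. Anxa8, an annexin that binds phospholipids with calcium, had 0, 0.441 and 0.296 CPM in KO, against 15.9, 19.7 and 16.3 CPM in E13 Het and 0, 0 and 0 CPM in E9 Het libraries. Its lowest E13 Het library was 36.1 times its highest other epidermal library, the widest gap in the module.

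Among the matrix and glycan genes, Has3 makes hyaluronan, Chst15 adds sulfate to chondroitin sulfate, St8sia6 is a sialyltransferase, Fmod is a proteoglycan that binds collagen, Papln is a matrix protein and Thsd7b a membrane protein with thrombospondin repeats. Has3 had 0.818, 1.03 and 0 CPM in KO, against 37.4, 41.8 and 26.8 CPM in E13 Het and 0, 0.736 and 0.243 CPM in E9 Het libraries, a gap of 26.1 times between its lowest E13 Het and its highest other library. Chst15 had 29.8, 23.7 and 36.2 CPM in KO, against 220.1, 189 and 143 CPM in E13 Het and 25.3, 10.5 and 26.0 CPM in E9 Het libraries, with KO and E9 libraries overlapping. Thsd7b had 18.6, 16.5 and 3.85 CPM in KO, against 87.5, 63.9 and 63.5 CPM in E13 Het and 0, 6.62 and 0 CPM in E9 Het libraries, and was held by every KO library but only by replicate 2 of E9. Fmod averaged 4.71 ± 4.22 CPM in KO, 45.6 ± 11.6 CPM in E13 Het and 5.96 ± 2.33 CPM in E9 Het. The mean of Papln was 2.25 ± 2.08 CPM in KO, 23.6 ± 9.49 CPM in E13 Het and 3.39 ± 2.33 CPM in E9 Het. St8sia6 averaged 1.32 ± 1.32 CPM in KO, 23.6 ± 10.3 CPM in E13 Het and 1.06 ± 0.922 CPM in E9 Het. The KO and E9 libraries overlapped in these 3 genes as well.

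The last 9 members include enzymes and proteins best known outside the epidermis. Car12, a carbonic anhydrase of the cell surface, had 8.34, 3.97 and 0 CPM in KO, against 62.0, 110.3 and 73.4 CPM in E13 Het and 0, 1.29 and 0 CPM in E9 Het libraries. Mpped1, which carries a metallophosphoesterase domain, had 0, 0.736 and 0 CPM in KO, against 53.6, 65.2 and 55.7 CPM in E13 Het and 2.93, 5.15 and 15.5 CPM in E9 Het libraries, and its KO mean was 0.422% of E13 Het, the lowest KO share in the module. Pcsk2, a prohormone convertase, had 5.72, 5.15 and 0 CPM in KO, against 23.3, 32.7 and 22.2 CPM in E13 Het and 0, 0 and 0 CPM in E9 Het libraries, so that 2 KO libraries and no E9 library held it.

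Sv2b, a glycoprotein of synaptic vesicles, had 0.164, 0.883 and 0 CPM in KO, against 62.0, 50.5 and 25.1 CPM in E13 Het and 0, 0 and 0 CPM in E9 Het libraries, so that 2 KO libraries and no E9 library held it. Doc2b, a calcium sensor of vesicle fusion, had 5.23, 8.24 and 4.15 CPM in KO, against 34.7, 34.3 and 24.9 CPM in E13 Het and 0, 0.368 and 3.40 CPM in E9 Het libraries, and each KO library was above each E9 library. Baalc averaged 0.905 ± 1.05 CPM in KO, 28.9 ± 5.53 CPM in E13 Het and 0 CPM in E9 Het. Tppp, which promotes tubulin assembly, averaged 0.861 ± 1.25 CPM in KO, 21.8 ± 3.06 CPM in E13 Het and 3.89 ± 2.45 CPM in E9 Het. A list of 8 neuronal markers summed to 102 to 186 CPM in KO libraries, 2.02 to 31.5 CPM in E13 Het libraries and 43.9 to 93.5 CPM in E9 Het libraries. Their part in the values of these genes was not tested. The peptidase family gene Pm20d2 averaged 2.15 ± 2.13 CPM in KO, 16.7 ± 4.85 CPM in E13 Het and 1.16 ± 1.56 CPM in E9 Het. The non-coding 5930412G12Rik averaged 2.99 ± 3.87 CPM in KO, 29.3 ± 5.73 CPM in E13 Het and 2.03 ± 1.78 CPM in E9 Het.

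The number of members without a count differed between libraries. In KO replicate 3, the library with the fewest counts, 22 of the 37 genes had no count, against 5 and 1 in KO replicates 1 and 2. Of all genes tested 15.6% had none there, against 2.37% and 0.375% in KO replicates 1 and 2. A count of 0 in that library allows up to 0.889 CPM. In E9 Het libraries 11, 7 and 18 members had no count in replicates 1, 2 and 4, where 5.70%, 4.57% and 10.5% of all genes tested had none. The rule capped the members in KO and E9 Het libraries. A larger share of zeros among members than among all genes is thus built into the choice, and nothing is read from it. In E13 Het libraries the 10 CPM minimum of the rule leaves no member without a count. Of all genes tested, 18.8%, 0.475% and 2.83% had none in E13 Het replicates 1, 2 and 3. The part of depth in these zeros was not tested. At the median over members, the level in single KO libraries was 9.46%, 10.3% and 0% of the E13 Het mean in replicates 1, 2 and 3, and the median of the KO means was 5.61%, 6.14% and 8.77% without replicate 1, 2 or 3, in place of 8.56%. E13 Het replicate 1 was the highest of its group for 21 members and had the fewest genes detected of all libraries. The same count was not made over all genes, so nothing is read from it.

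To describe how the choice depends on single libraries, each of the 9 epidermal libraries was left out in turn and genes were chosen from the other 8. The left-out library met the criterion where it kept the 3-fold gap and, for E13 Het, the 10 CPM minimum. Of the genes so chosen, 92.5%, 86.0% and 92.5% met the criterion in the left-out KO replicate 1, 2 or 3, where 1.87%, 1.22% and 6.2% of all genes with the E13 Het minimum, outside the families dropped by name, did. In the left-out E13 Het replicates 82.2%, 71.2% and 88.1% met it, against 0.817%, 0.608% and 0.791% of all such genes. In the left-out E9 Het replicates 1, 2 and 4 the shares were 90.2%, 100% and 92.5%, against 3.86%, 4.17% and 5.77%. The genes that met the criterion were the 37 members each time, which follows from the rule. Each share thus reflects only how many genes the other 8 libraries chose. The genes set beside them needed the E13 Het minimum alone and were not chosen as low in other libraries. No support for the module is drawn from these shares. Without E13 Het replicate 2 the rule chose 52 genes, of which 15 failed in that library.

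The comparison of KO with E9 Het epidermis asks whether KO cells at E13 held these genes at the level of the earlier stage, and the thresholds capped both groups without ordering them. Foxb2 and Pcsk2 were called higher in KO and Mpped1 lower, while the other 34 genes did not pass edgeR's test. Over all 13052 genes, 4.62% were called higher and 3.05% lower. A further 6 members (Baalc, Car12, Il1r1, Scel, Sv2b and Trim29) had an unadjusted p under 0.05 and missed the adjusted threshold. E13 Het levels, high by choice, brought all members past the filter on low counts, also those near 0 in both KO and E9. Baalc and Sv2b had no E9 count and Il1r1 had 1, so nothing is read from these 6 values. Mean levels were above E9 in 22 genes and below in 15. Each KO library exceeded each E9 library in 2 genes, Foxb2 and Doc2b (18.2% of all genes), and was below each in 2, Mpped1 and Trim29 (13.6% of all genes). The groups overlapped in the other 33.

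Pcsk2 differed by 7.32 ± 1.86 on the log2 scale (fit ± standard error, edgeR adjusted p = 0.0311), and its KO mean was at least 23.0-fold above E9, where 0 counts were set to 3 over the group. The E13 Het libraries, high by the choice of the gene, carried Pcsk2 past the filter on low counts, and in a fit of KO and E9 libraries alone it was filtered out and had no test. Foxb2 differed by 4.36 ± 1.22 (edgeR adjusted p = 0.0429), a ratio of 23.1 with an exact 95% counting interval of 6.06 to 197. The Pcsk2 call was lost without KO replicate 1 or 2 or without any one E9 library, with edgeR adjusted p from 0.0609 to 0.0961, and was kept without KO replicate 3 (edgeR adjusted p = 0.00367). The Foxb2 call was lost without any library but E9 replicate 2, with edgeR adjusted p from 0.0624 to 0.141 (0.0351 without E9 replicate 2). Mpped1 differed by -4.70 ± 0.93 (edgeR adjusted p = 0.00611) and kept its call whichever library of both groups was left out, with edgeR adjusted p from 0.00252 to 0.0257. When KO and E9 libraries were fitted alone, the edgeR adjusted p was 0.131 for Mpped1 and 0.256 for Foxb2. The median log2 difference of the 37 genes was 0.48 (0.39 with the 5 genes without E9 counts at their bounds), beside 0.01 over all genes tested.

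**Figure D3:**
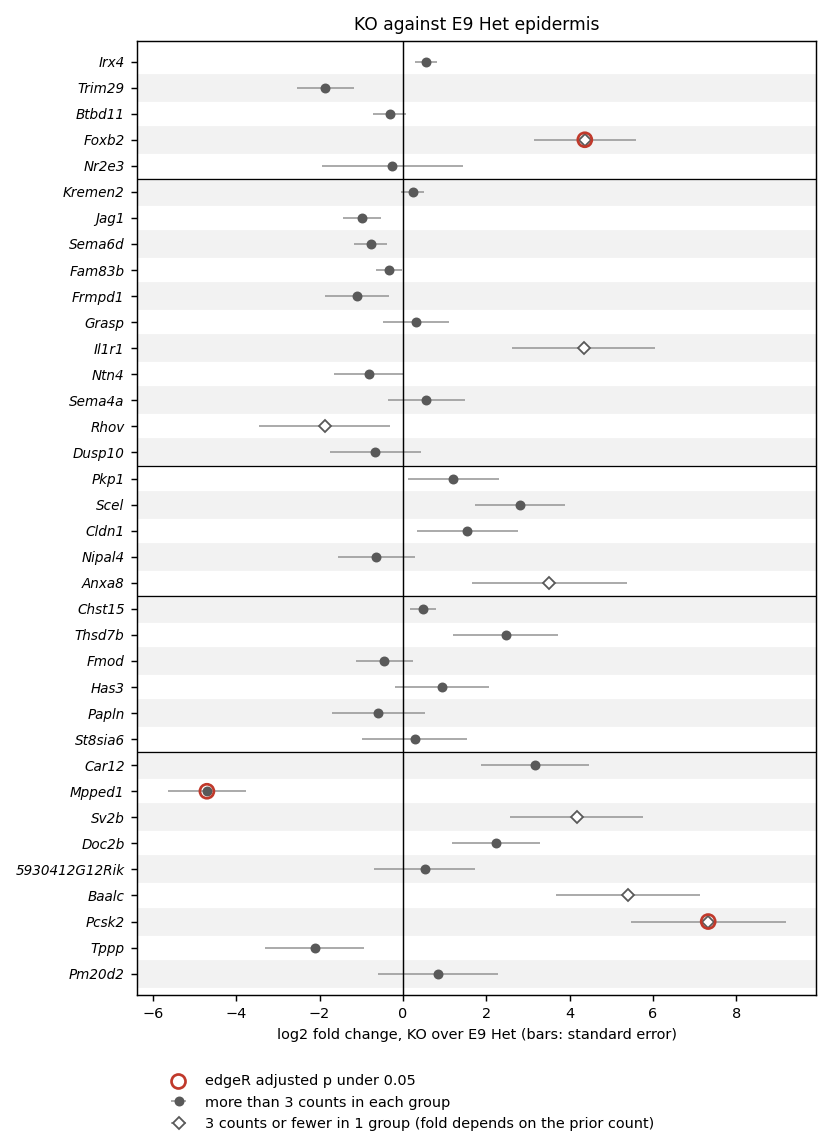
Log2 fold change of KO over E9 Het epidermis (x axis) for 36 of the 37 genes, with its standard error as a bar; open diamonds mark genes with 3 counts or fewer in 1 group, whose fitted value depends on the prior count, and red circles mark edgeR adjusted p under 0.05. Foxb2 and Pcsk2 are circled to the right of 0 and Mpped1 to the left, and the other genes lie on both sides of 0.

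Dermal cells of the same stage show which members are also expressed in sorted mesenchyme. Here 28 of the 37 genes were called higher in E13 Het epidermis (16.5% of the 12975 genes tested) and 1, Sema6d, lower (18.2%). Among the 7975 genes with an E13 Het minimum of 10 CPM, which all members have by choice, 24.6% were called higher and 17.9% lower. With raw library totals in place of scaled ones the calls over all genes changed from 2140 higher and 2364 lower to 3156 higher and 1438 lower, and the median of all genes moved by 0.44 on the log2 scale. Of the 29 calls, 23 were kept whichever library was left out, and Anxa8, Baalc, Car12, Cldn1, Fmod and Tppp lost theirs without at least 1 library, with counts of members called higher from 23 to 27. The median log2 difference of the members was 3.50, beside -0.13 over all genes tested. The E13 Het minimum can raise the median of the members by choice, and the median over all genes with that minimum is not given here.

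Every E13 Het epidermal library was above every dermal library in 33 members (34.0% of all genes, and 47.7% of those with the E13 Het minimum). In dermis, 12 members stayed under 1 CPM in all 3 libraries: Anxa8, Fam83b, Foxb2, Irx4, Nipal4, Nr2e3, Pcsk2, Pkp1, Rhov, Scel, Sema4a and St8sia6. Irx4 had 416, 357 and 296 CPM in E13 Het epidermis, against 0.101, 0.472 and 0 CPM in dermis, a log2 difference of 10.67 ± 0.78 (edgeR adjusted p = 0.000137). Fam83b, Foxb2, Nr2e3 and St8sia6 had no dermal count. The mean of Fam83b was at least 2783-fold above dermis, where 0 counts were set to 3 over the group. Of the junction and barrier genes, Pkp1 averaged 144 ± 74.0 CPM in epidermis and 0.202 ± 0.35 CPM in dermis (SD, n = 3 each). Cldn1, in contrast, averaged 29.4 ± 2.44 CPM in epidermis and 10.4 ± 1.98 CPM in dermis. The Cldn1 difference of 1.07 ± 0.34 (edgeR adjusted p = 0.0411) lost its call without any one library but E13 Het replicate 1, with edgeR adjusted p up to 0.135.

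Sema6d ran the other way, with 131, 126 and 107 CPM in E13 Het epidermis, against 274, 164 and 208 CPM in dermis. Each dermal library exceeded each epidermal one, by a log2 difference of -1.26 ± 0.16 (edgeR adjusted p = 0.000763), which was -0.83 with raw library totals. The KO epidermal libraries, whose mesenchymal marker sums were 1051 to 2157 CPM, held Sema6d at 4.91 to 13.4 CPM. In dermal libraries the mesenchymal marker sums were 20628 to 35759 CPM. The part of mesenchymal cells in the epidermal Sema6d values was not tested. Dusp10 and Il1r1 were detected in every library of both tissues. Il1r1 had 38.2, 67.4 and 39.7 CPM in E13 Het epidermis, against 36.5, 26.8 and 30.4 CPM in dermis. Dusp10 had 19.5, 24.2 and 31.5 CPM in epidermis, against 22.7, 18.0 and 26.7 CPM in dermis. The epidermal and dermal libraries overlapped for 3 members, Dusp10 and Sv2b among them, and the log2 differences were -0.28 ± 0.33 in Dusp10 and 0.21 ± 0.30 in Il1r1 (edgeR adjusted p of 0.564 and 0.637). The sign of Dusp10 turned with raw library totals and that of Il1r1 without E13 Het replicate 2, and a p above the threshold does not show equal levels. Other members with a dermal mean of 10 CPM or more included 5930412G12Rik, Car12, Cldn1, Chst15, Doc2b, Jag1 and Sv2b. Jag1 averaged 229 ± 21.2 CPM in epidermis and 13.9 ± 6.32 CPM in dermis, a log2 difference of 3.64 ± 0.31 (edgeR adjusted p = 0.000109).

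**Figure D4:**
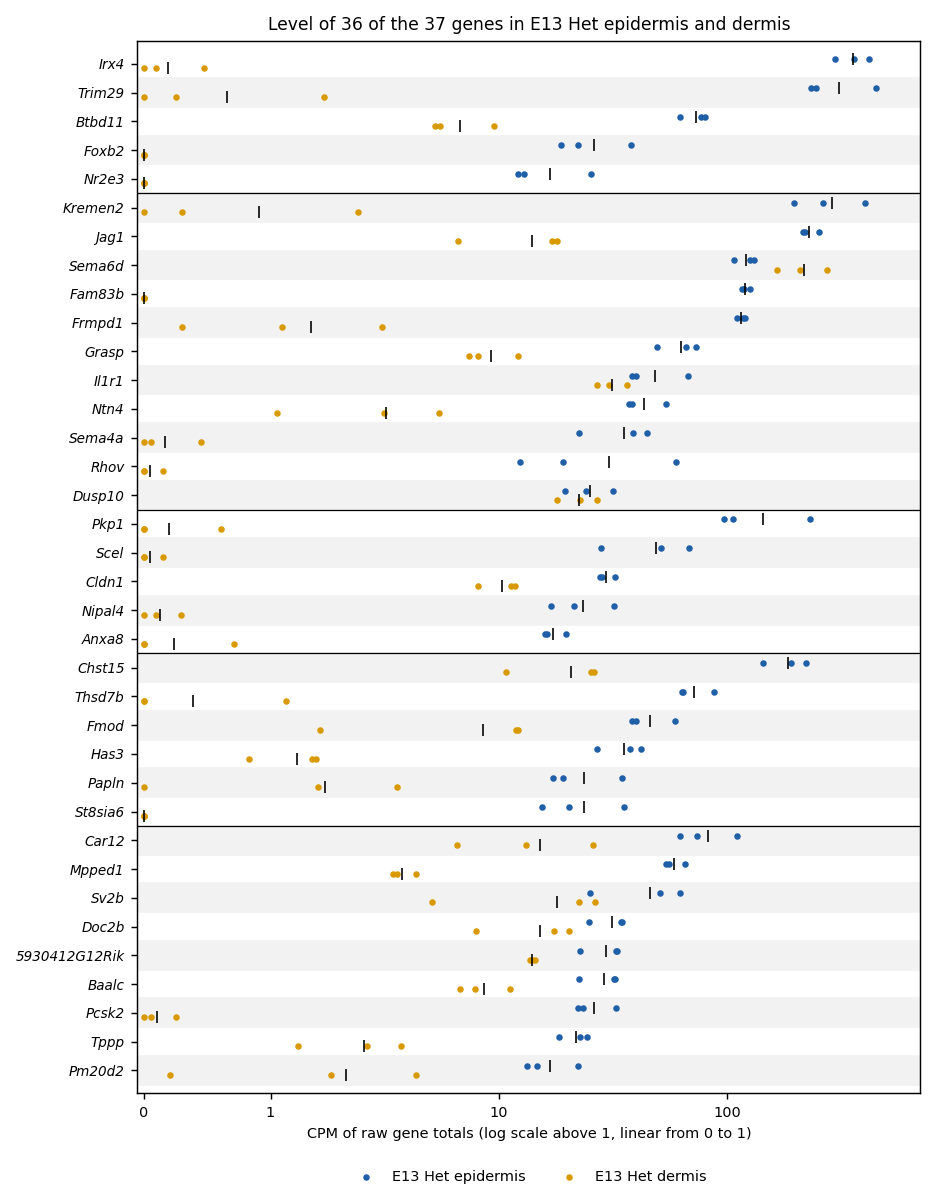
Level of 36 of the 37 genes in CPM (x axis, log scale above 1 and linear from 0 to 1) in the 3 E13 Het epidermal (blue) and 3 E13 Het dermal (orange) libraries; a vertical bar marks the mean of a group. Sema6d is the gene whose orange points all lie to the right of the blue ones, and Dusp10 and Sv2b are those whose points overlap.

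The surroundings of the module were read from 7 lists of related genes, written with earlier results of these data known and so no independent evidence of a direction. Of 54 tested genes that p63 is known to activate, 28 were lower in KO epidermis than in that of E13 Het embryos and 0 higher by edgeR adjusted p (1.36% and 0.835% of all genes), at a median log2 difference of -2.00, beside 0.03 over all genes. At an unadjusted p under 0.05, 2 genes of the list were higher and 36 lower by edgeR, and DESeq2 also called 2 higher. The 28 include the members Kremen2, Pkp1 and Trim29, and 25 of the 51 other genes of the list. Several of the 25, with Col17a1, Itgb4 and Krt5 among them, met the thresholds of the rule and were left out by name. Their calls repeat the choice of the genes. Others of the 25 fell short of the 3-fold gap. Among them is the receptor Notch1, with 149 ± 38.3 CPM in KO and 669 ± 196 CPM in E13 Het (SD, n = 3 each). Its lowest E13 Het library had 533 CPM and its highest KO library 178 CPM. Another is Edaradd, the adaptor of the ectodysplasin receptor, with 0.398 ± 0.554 CPM in KO and 82.5 ± 29.8 CPM in E13 Het. Edaradd had 60.7 CPM in its lowest E13 Het library and 21.4 CPM in its highest E9 Het library. Of the 28 calls, 19 were kept whichever KO or E13 Het library was left out, and those of Pkp1 and Trim29 were not. The 25 stand beside basal marker sums that were lower in KO as well. Col17a1, Itga6, Itgb4 and Krt5 are in both, and the part of basal cells in these calls was not tested.

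The calls between KO and E13 Het epidermis in the other 6 lists stand beside 1.36% lower and 0.835% higher among all genes tested. Of 14 tested genes of stratified differentiation and barrier, 1 was lower, the grainyhead factor Grhl3. In the EGF family 2 of 15 were lower, the receptor Egfr and its negative regulator Lrig1, with 90.5 ± 26.3 CPM in KO and 396 ± 25.4 CPM in E13 Het for Egfr. Among 18 FGF family genes the receptor Fgfr2 was lower, with 206 ± 16.2 CPM in KO and 990.0 ± 136 CPM in E13 Het, and Fgfr1 higher, with 88.3 ± 2.12 CPM in KO and 38.8 ± 11.6 CPM in E13 Het. The retinoid list had 1 of 14 higher, the binding protein Crabp2, and 2 lower, the receptors Rarg and Rxra. Of 47 tested transcription factors of the epidermis 5 were lower (Barx2, Bnc1, Grhl3 and Snai2 among them) and 2 higher (Trps1 and Zfhx3). Of 20 adhesion genes of the immunoglobulin and nectin families 3 were higher (Alcam, Pvrl2 and Pvrl3) and 1, Pvrl1, lower. Of the calls in these 6 lists, those of Bnc1, Crabp2, Egfr, Fgfr2, Pvrl1, Pvrl3, Rarg, Snai2 and Trps1 were kept whichever KO or E13 Het library was left out, and the others were lost without at least 1 library. At an unadjusted p under 0.05 by edgeR, the barrier list had 0 higher and 6 lower in KO, and the EGF list 1 and 2. The counts were 3 and 3 for FGF, 3 and 2 for retinoids, 6 and 15 for transcription factors and 5 and 2 for adhesion. The share of all genes at this p is not given here, and nothing is read from these counts. The median log2 difference was -1.47 in the barrier list and between 0.10 and 0.57 in the other 5 lists.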

How the data were processed

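Each of the 12 RNA libraries came as a deposited file of whole-number counts per gene symbol, made by the authors, ending in the 5 summary lines of HTSeq. Per the submitters' processing notes, HTSeq, Bowtie2, TopHat2 and mm10 were used; no version or role is listed, and strand handling is not given in the sources. The 7 ATAC libraries and the p63 ChIP library were not analysed here. The summary lines, 48.8% to 63.8% of the entries of an epidermal and 20.2% to 21.6% of a dermal file, were left out of totals and tests. The ribosomal precursor Rn45s, 2.90% to 9.69% of epidermal and 11.2% to 30.7% of dermal gene counts, was kept in.

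CPM were computed on raw gene totals. Genes kept by filterByExpr were tested with the robust quasi-likelihood F test of edgeR 4.0.16 (R 4.3.3) after TMM scaling. A call is an adjusted p under 0.05 (Benjamini-Hochberg, across every gene in the fit). The 9 epidermal libraries entered 1 fit with 6 residual degrees of freedom, and E13 Het epidermis and dermis another. All 37 genes passed the filter, as their E13 Het levels ensure. The standard error of a log2 fold change was taken back from its F statistic. A group at 0 was set to 3 counts over the group for a bound, and ratios with 1 to 3 counts have exact 95% counting intervals, which cover counting error only. PCR copies are not independent molecules. Scripts were tested on simulated data.

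The values of 1 member, 1 gene of the lists and 1 whole list are not reported here. The 37 genes, the gene lists and the rule for named genes were chosen with earlier results of these data known. The rule named the members with the highest E13 Het means, the widest gaps, calls between KO and E9, the highest dermal means and the values next to each threshold, and non-members from the lists or next to a threshold. The grouping of members by function was made after the genes were known. Alternatives were other thresholds, scalings and filters, DESeq2 1.42.0, limma 3.58.1 (voom with quality weights), a replicate block, other sets of libraries in a fit and leaving out single libraries. Leaving out the 2 libraries with fewest genes detected together, and leaving out single KO libraries from the median KO level, were added after seeing the data.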

Additional observations from a re-analysis of the deposited data

How the results depend on the processing

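The number of genes chosen was 65 with a fold of 2 and 15 with a fold of 5 in place of 3, and 37 to 52 when a library was left out, and was within 1.5 times of 37 under the other alternatives. With DESeq2 size factors 36 of the 37 genes were chosen again, without Jag1. Leaving out single KO libraries moved the median KO level between 5.61% and 8.77% of E13 Het. Between KO and E9, members called higher numbered 4 with DESeq2, 0 with a replicate block, 0 in a fit of both groups alone and 0 to 4 when a library was left out, in place of 2. Members called lower numbered 2 with limma voom, 0 in a fit of both groups alone and 1 to 1 when a library was left out, in place of 1. Over all genes, 1001 calls became 2172 with DESeq2, 2575 with limma voom, 540 with a replicate block and 557 to 815 when a library was left out. Against dermis, 4504 calls became 2934 to 5269 when a library was left out, lowest without dermal replicate 3. Log2 differences from dermis that changed sign were 0.16 in Dusp10 with raw library totals and -0.16 in Il1r1 without E13 Het replicate 2 (-0.16 to 0.37 over all libraries left out). With DESeq2 the lists between KO and E13 Het gave 2 higher for p63-activated genes, 5 lower for the barrier, 1 higher for EGF, 3 lower for FGF, 2 higher for retinoids, 5 higher and 13 lower for transcription factors and 2 lower for adhesion. The cause of these changes was not tested. The correlations of deviations of same-numbered replicates were 0.00 and 0.01 between KO and E9, -0.05, 0.23 and -0.05 between KO and E13 Het and -0.03 to 0.02 between E13 Het epidermis and dermis. In no pair of groups did every number exceed 0.1, so that the samples are taken to share only a number. With 3373819 counts in KO replicate 3, a count of 0 there allows a level of up to 0.889 CPM.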
